A study of Mus musculus with 4 samples.

Results

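The transforming growth factor-beta (TGF-beta) and activin genes described here were the rows of Tgfb1, Tgfb2, Tgfb3, Tgfbr1, Tgfbr2, Tgfbr3, Inhba, Inhbb, Ltbp1 and Ltbp2, which are 10 of the 18619 genes in 1 single-cell matrix of intestinal stromal cells (IntSCs). They were chosen by name and are described across the cell clusters of that matrix. The matrix came from the library labelled LATS1/2 KO 1w, taken 1 week after induction from small intestine of adult C57BL/6J mice that carried Pdgfrb-CreERT2, floxed Lats1 and Lats2 and a tdTomato reporter. Muscle layer and serosa had been stripped, immune, epithelial and blood endothelial cells had been depleted, and tdTomato-positive cells had been sorted. Of the 4 samples, in 3 groups, the other 3 (WT and LATS1/2 KO 2w) were not analysed here. All comparisons below are therefore between cells of 1 library that share 1 label and 1 set of floxed alleles. The Cre is driven by the promoter of the mural and fibroblast receptor gene Pdgfrb, so cells that do not use that promoter are outside the sort, and each of the 4108 cells had a Pdgfrb UMI (unique molecular identifier, 1 per captured transcript). The 3-prime tags of Lats1 and Lats2 cannot show whether the floxed exons were lost, so recombination in single cells was not tested.

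TGF-beta ligands are secreted in a latent form, bound to their own propeptide and, in many cells, to a latent TGF-beta binding protein (LTBP) that anchors the complex in the extracellular matrix. Once released, a ligand binds the type II receptor, which recruits and phosphorylates the type I receptor, and the receptor pair phosphorylates SMAD2 and SMAD3. Activins are dimers of inhibin beta subunits that use their own type I and type II receptors and the same SMADs. In the gut wall these ligands are known for matrix production and smooth muscle gene expression in stromal cells and for restraint of epithelial growth.

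LATS1 and LATS2 are the kinases that hold back YAP and TAZ, which bind DNA through TEAD factors at a core motif, GGAAT. The promoters of the members whose levels were most uneven between clusters are shown so that this motif can be looked for. They run from 250 bases before to 50 after the annotated start (RefSeq, GRCm38.p6), 5′ to 3′ on the gene's strand, with GGAAT or its reverse ATTCC in capitals. Inhba lies at chr13:16011601-16011900 (plus strand), Inhbb at chr1:119422199-119422498 (minus strand) and Ltbp2 at chr12:84876442-84876741 (minus strand).
Inhba: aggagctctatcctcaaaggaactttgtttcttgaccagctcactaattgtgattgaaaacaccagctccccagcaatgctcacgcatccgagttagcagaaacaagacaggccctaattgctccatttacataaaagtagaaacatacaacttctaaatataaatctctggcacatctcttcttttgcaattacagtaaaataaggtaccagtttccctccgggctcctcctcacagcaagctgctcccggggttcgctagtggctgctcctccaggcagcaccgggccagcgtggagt
Inhbb: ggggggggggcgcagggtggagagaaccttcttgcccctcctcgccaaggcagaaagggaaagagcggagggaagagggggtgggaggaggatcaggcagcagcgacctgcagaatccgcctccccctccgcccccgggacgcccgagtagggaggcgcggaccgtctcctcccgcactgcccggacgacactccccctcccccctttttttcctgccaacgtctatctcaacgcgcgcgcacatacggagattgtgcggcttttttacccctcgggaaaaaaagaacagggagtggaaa
Ltbp2: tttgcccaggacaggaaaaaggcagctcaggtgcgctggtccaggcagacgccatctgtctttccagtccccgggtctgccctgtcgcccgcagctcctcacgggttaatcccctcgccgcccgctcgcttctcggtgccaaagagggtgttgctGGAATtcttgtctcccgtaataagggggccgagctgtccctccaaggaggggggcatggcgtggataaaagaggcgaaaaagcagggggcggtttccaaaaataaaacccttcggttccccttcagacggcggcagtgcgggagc

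Ltbp2 held 1 match to GGAAT, whereas Inhba and Inhbb held 0. Of the 8 members with a promoter entry, Tgfb2 and Ltbp1 also held 1 match each, and Tgfb1, Tgfbr1 and Tgfbr2 held 0. The promoters of Tgfb3 and Tgfbr3 were not analysed here. Of 32851 mouse promoters of the same length, 38.7% held at least 1 match on either strand. The SMAD core letters CAGAC or GTCTG stood 3 times in the Ltbp2 window and 0 times in those of Inhba and Inhbb, and 49.6% of all promoters held them. A match is a string of letters and does not show that a factor binds there. Sites outside these windows were not looked for, so 0 matches does not show that a gene has no site.

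Cells were grouped into 9 clusters by their overall expression, with the members, the other genes of the pathway and the YAP/TAZ target genes left out of the genes that formed the clusters. Cluster 4 (690 cells) was called FB4-like, a fibroblast class of the submucosa, since 4 of 4 markers of that class, among them Cilp and Cd81, stood out there. Cluster 7 (77 cells, 6 of 7 smooth muscle markers) was called SMC-like, and cluster 9 (45 cells, 5 of 5 markers) vFB3-like, a villus fibroblast class marked by Tacr1, P2rx1 and Itga8. Cluster 6 (205 cells, led by Bean1, Wif1 and Sv2b) had 7 of 7 markers of FB5, the Pdgfra-high fibroblast beneath the epithelium. It also had 3 of 8 mural markers, and Kcnj8 and Abcc9 of these were among its 10 leading genes, so it is referred to by number. Cluster 8 (69 cells, led by Adra2a, Serpina1b and Slc38a11) had 7 of 8 mural markers, but also 4 of 7 smooth muscle markers and Ano1 of the interstitial cells of Cajal, and it likewise has no name. Clusters 1 (1086 cells; Fmod, Dkk2, Adamts5), 2 (890 cells; Cxcl13, Lrrc55, Kcns3), 3 (725 cells; Cxcl10, Adamts4) and 5 (321 cells; Sertm1, Tex14, Cxcl14) fell to no other class and are called the villus fibroblast clusters by default, since 0 of the 3 vFB1-2 markers met the 2-fold rule in any of them. Those markers summed to between 4661 and 5272 CPM in these clusters, 4406 in the SMC-like cluster and 537 in the FB4-like cluster. Cluster 5 also had 4 of 5 vFB3 markers. Cells with Xist and no Y-linked UMI (2009) and cells with Y-linked UMIs and no Xist (1545) were both present, so the library pooled mice of both sexes.

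The library held 46054627 UMIs, with a median of 10726 per cell (1965 to 35727) and cluster medians of 6793 (cluster 8) to 12888 (cluster 9). Levels are in CPM, which is how many of every 1000000 UMIs from the named cells belonged to the gene. Each CPM compares 1 gene between cells, and since 3-prime tags are not scaled by transcript length, different genes are not ranked by it. With 1 library there is no replicate, so ratios carry exact 95% conditional binomial intervals and shares of cells exact (Clopper-Pearson) intervals, which cover counting error only, and no p-value is given. Markers of most other cell types were low. The summed level of the blood endothelial list was 0 to 8.80 CPM over the clusters and that of the immune list 6.57 to 57.6 CPM, most of it Lyz2, with Cd3e at 0 in each cluster. The list of interstitial cells of Cajal (Kit, Ano1, Etv1) summed to 226 CPM in cluster 6, nearly all of it Etv1, and 95.01 CPM in cluster 8, most of it Ano1, against 10.5 to 36.9 CPM elsewhere. RNA from broken cells that entered other droplets was bounded with Y-linked UMIs in cells with Xist, at 8.64% of the level of a gene in the library.

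All 10 members differed by at least 2-fold between their highest and lowest clusters, except that Tgfbr2 did not when cells were limited to at most 5% mitochondrial UMIs. Such a range was common, since 58.4% of the 8423 genes with at least 10 CPM in the library had it. Inhbb (6.80 CPM) was below that level, and Ltbp2 reached it only through the vFB3-like cluster. The range was narrowest for the type I receptor Tgfbr1 (2.05-fold, 95% interval 1.13 to 3.90) and wide for Ltbp2 (416-fold, 199 to 1047) and for Inhbb, which had 0 UMIs in 4 clusters. The median range was 1.13 on the log2 scale for all genes tested and 1.92 for the 38 other pathway genes that passed 10 CPM.

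**Figure D1:**
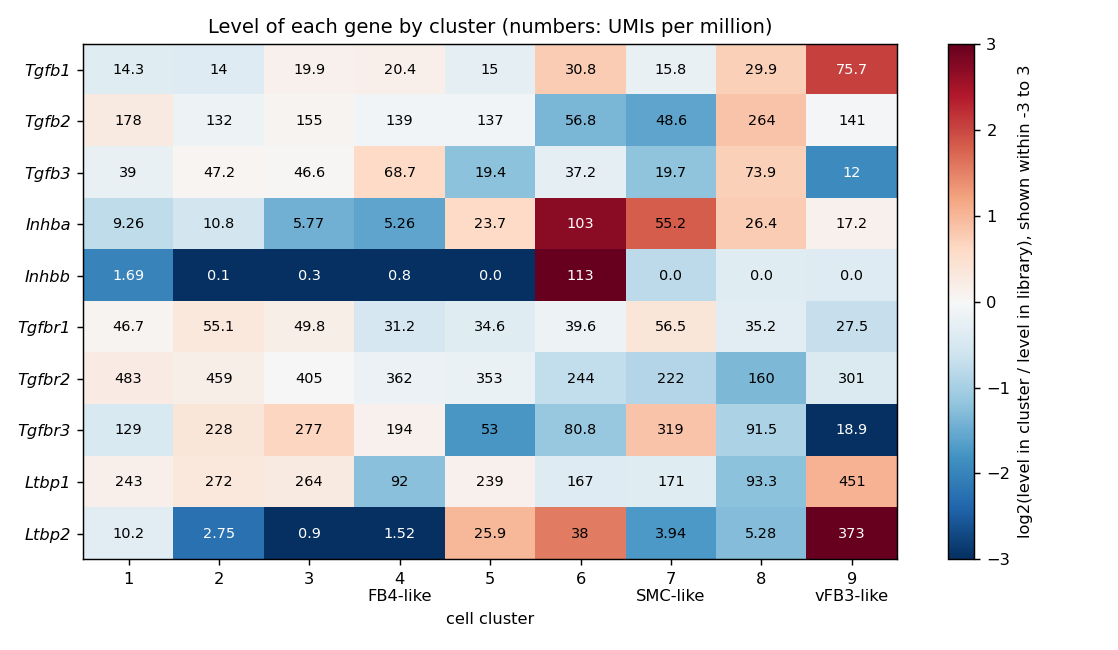
Level of each member (rows) in each of the 9 clusters (columns), coloured by log2 of its CPM over its library CPM. Clusters with fewer than 3 UMIs are coloured at the level of 3 UMIs. Inhba and Inhbb stand highest in cluster 6, and Tgfb1, Ltbp1 and Ltbp2 in the vFB3-like cluster 9.

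Of the TGF-beta ligands, Tgfb1 (chr7:25687002-25705077, plus strand), the form best known from immune cells and platelets, was highest in the vFB3-like cluster at 75.7 CPM. It stood at 30.8 CPM in cluster 6, 29.9 in cluster 8, 20.4 in the FB4-like cluster and 19.9 in cluster 3. The SMC-like cluster (15.8), cluster 5 (62 of 4133731 UMIs), cluster 1 (14.3) and cluster 2 (13.98 CPM) were lowest. The step from cluster 9 to cluster 6 was 2.46-fold (1.66 at the lower bound), and every later step between neighbours had an interval that held 1. The 44 Tgfb1 UMIs of the vFB3-like cluster included 7 from 1 cell. The 5 immune markers summed to 25.8 CPM there, below clusters 1, 5 and 6 and above the others, with Lyz2 at 24.1 CPM (14 UMIs), C1qa at 1.72 CPM (1 UMI) and Ptprc, Cd3e and Cd79a at 0. The blood endothelial markers Pecam1, Cdh5 and Kdr summed to 0. The part of immune RNA in the Tgfb1 level was not tested.

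Tgfb2 (chr1:186622792-186705989, minus strand), a ligand of mesenchyme and development, was highest in cluster 8 at 264 CPM. Cluster 1 had 178 CPM and cluster 3 had 155, both above the library level of 146. The vFB3-like cluster (141), the FB4-like cluster (139), cluster 5 (137) and cluster 2 (132 CPM) did not differ between neighbours beyond counting error. Cluster 6 (56.8) and the SMC-like cluster (48.6 CPM) were lowest, a step of 2.31-fold below cluster 2. Tgfb2 and Tgfb1 thus had different orders, and cluster 6 was high for Tgfb1 and low for Tgfb2.

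Tgfb3 (chr12:86056745-86079041, minus strand), the remaining TGF-beta ligand, stood at 73.9 CPM in cluster 8 and 68.7 in the FB4-like cluster, which did not differ beyond counting error. Clusters 2 (47.2), 3 (46.6), 1 (39.0) and 6 (37.2 CPM) followed. The SMC-like cluster (19.7), cluster 5 (19.4) and the vFB3-like cluster (12.04 CPM, 7 UMIs) were lowest, with intervals that held 1 between neighbours. The vFB3-like cluster was lowest for Tgfb3 and highest for Tgfb1, whereas the SMC-like cluster and cluster 5 were low for both. The gene overlaps Ttll5 on the opposite strand.

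Inhba (chr13:16011851-16031621, plus strand) encodes the inhibin beta A subunit, which makes activin A. It was highest in cluster 6 at 103 CPM (257 UMIs, at most 9 of them from 1 cell). The SMC-like cluster had 55.2 CPM, of which 26 of 42 UMIs came from 1 cell, and cluster 8 had 26.4 CPM (15 UMIs). Cluster 5 had 23.7 CPM and the vFB3-like cluster 17.2 CPM (10 UMIs), and the levels from cluster 8 to cluster 1 did not differ between neighbours. Clusters 2 (10.8) and 1 (9.26 CPM) were above clusters 3 (5.77) and 4 (5.26 CPM), which were lowest. Inhba was thus low in the 4 largest clusters, and its level in cluster 6 was 19.6-fold that in the FB4-like cluster (14.2 to 27.5).

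Inhbb (chr1:119415465-119422248, minus strand) encodes the beta B subunit, which makes activin B, or with beta A the mixed activin AB. Of its 313 UMIs, 282 (90.1%) lay in cluster 6, which held 5.43% of all UMIs. Its level there was 113 CPM, against 1.69 CPM in cluster 1 (21 UMIs), 0.818 in the FB4-like cluster (7 UMIs), 0.256 in cluster 3 (2 UMIs) and 0.115 in cluster 2 (1 UMI). Clusters 5, 7, 8 and 9 had 0 UMIs. The step from cluster 6 to cluster 1 was 66.7-fold, with a lower bound of 42.8. The bound on free RNA for this gene was 0.587 CPM, so the levels of clusters 2 and 3 were below it. Inhbb was the member most restricted to 1 cluster.

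**Figure D2:**
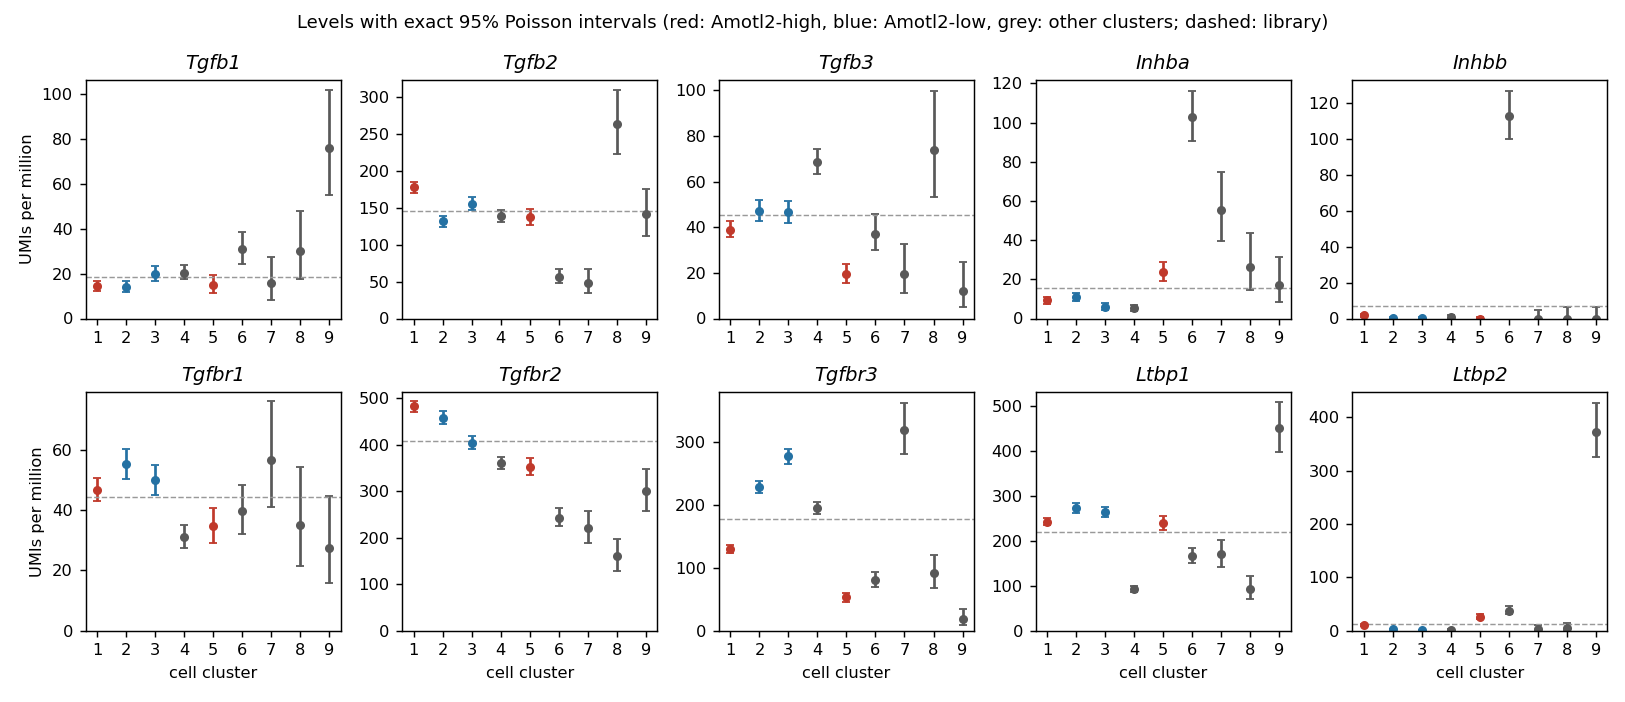
CPM of each member in the 9 clusters with exact 95% Poisson intervals, which cover counting error only. Red points are the villus fibroblast clusters with high Amotl2 (1 and 5), blue points those with low Amotl2 (2 and 3), and grey points the other clusters. Inhbb reaches 113 CPM in cluster 6 and at most 1.69 CPM elsewhere.

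Some cells of cluster 6 held transcripts of both beta subunits, at about the rate their separate shares give. After each cell was thinned to 5000 UMIs, so that depth was equal (94 cells of the library were shallower and left out, 5 of them in cluster 6), 33.0% of its 200 remaining cells (26.5% to 40.0%) had Inhba and 37.5% (30.8% to 44.6%) had Inhbb. Both were seen in 26 cells, which is 13.0% (8.67% to 18.5%), beside the 12.4% that the product of the shares gives. No cell of the other clusters had both at this depth. In the library as a whole the thinned shares were 6.10% for Inhba and 2.19% for Inhbb. Without thinning, cluster 6 had Inhba in 56.6% and Inhbb in 57.6% of cells, and 0 of the 321 cells of cluster 5, whose median depth was higher, had Inhbb. Shares at fixed depth depend on the depth chosen, and a cell without a UMI is not a cell without the transcript.

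Among the receptors, the type II receptor Tgfbr2 (chr9:116084293-116175360, minus strand) was highest in the villus fibroblast clusters 1 (483 CPM), 2 (459) and 3 (405). It stood at 362 CPM in the FB4-like cluster and 353 in cluster 5, which did not differ, and at 301 CPM in the vFB3-like cluster. Cluster 6 (244), the SMC-like cluster (222) and cluster 8 (160.1 CPM) were lowest. The whole range was 3.02-fold (2.45 to 3.75). Clusters 6, 7 and 8 were thus lowest for the receptor that binds ligand.

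Tgfbr1 (chr4:47353222-47414931, plus strand), the type I receptor kinase, varied least. It ran from 56.5 CPM in the SMC-like cluster, 55.1 in cluster 2, 49.8 in cluster 3 and 46.7 in cluster 1 to 39.6 in cluster 6 and 35.2 in cluster 8. Cluster 5 (34.6), the FB4-like cluster (31.2) and the vFB3-like cluster (27.5 CPM) were lowest. No pair of neighbours in this order differed beyond counting error. At 5000 UMIs, 80.0% of cells had Tgfbr2 and 20.0% had Tgfbr1. Both were seen in 16.1% of cells over the library, 20.1% in cluster 3 and 4.17% in cluster 8, where they were 2 of 48 cells, 21 shallower cells having been left out. The products of the separate shares give 16.0%, 18.7% and 4.86%. Without thinning Tgfbr2 was seen in 92.5% of cells of the library and 31.9% of those of cluster 8, which was also the shallowest cluster.

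Tgfbr3 (chr5:107106570-107289629, minus strand) encodes betaglycan, a co-receptor that presents ligand, TGF-beta2 above all, to the type II receptor and that also binds inhibin. It was highest in the SMC-like cluster at 319 CPM, with cluster 3 at 277, cluster 2 at 228 and the FB4-like cluster at 194. Cluster 1 had 129 CPM, cluster 8 had 91.5 and cluster 6 had 80.8, the last pair not differing. Cluster 5 (53.0) and the vFB3-like cluster (18.9 CPM, 11 UMIs) were lowest. The range was 16.9-fold (9.26 to 34.2), the widest of the receptors. The gene models Gm43422, Gm43423 and Gm42900 overlap Tgfbr3 on the same strand, and reads shared with them could have been left out or moved by the counting.

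Of the latent binding proteins, Ltbp1 (chr17:75005568-75392512, plus strand), which holds latent TGF-beta in the matrix, was high in all villus fibroblasts. The vFB3-like cluster had 451 CPM, followed by cluster 2 (272), cluster 3 (264), cluster 1 (243) and cluster 5 (239 CPM). The SMC-like cluster (171) and cluster 6 (167 CPM) did not differ, nor did cluster 8 (93.3) and the FB4-like cluster (92.0 CPM). The FB4-like cluster, a fibroblast cluster by its markers, was thus 4.90-fold (4.24 to 5.64) below the vFB3-like cluster and at the level of cluster 8. The gene model Gm6276 overlaps Ltbp1 on the same strand, and reads shared with it could have been left out or moved by the counting.

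Ltbp2 (chr12:84783212-84876532, minus strand) belongs to the family but is not known to bind latent TGF-beta, and it sits on microfibrils. It was highest in the vFB3-like cluster at 373 CPM, with 217 of its 596 UMIs (36.4%) in a cluster that held 1.26% of all UMIs. Cluster 6 followed at 38.0 CPM and cluster 5 at 25.9, then cluster 1 at 10.2. Cluster 8 (5.28) and the SMC-like cluster (3.94 CPM) had 3 UMIs each. Clusters 2 (2.75), 4 (1.52) and 3 (0.897 CPM) were lowest, the last at or below the free RNA bound of 1.12 CPM. After thinning to 5000 UMIs, 77.3% of the vFB3-like cells (44 of 45 cells kept, 62.2% to 88.5%) had Ltbp2, against 3.99% of the library, and without thinning all of its cells had it.

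Each class was next compared with all other cells of the library, with a level at least 2-fold higher as the mark of a difference. Clusters were formed from the same cells, so these ratios are descriptions. In cluster 6, Inhbb was 159-fold (109 to 238), Inhba 9.65-fold (8.26 to 11.3) and Ltbp2 3.31-fold (2.63 to 4.12) higher, where 4.2% of all genes tested passed. No count of members is drawn, since Inhbb (6.80 CPM in the library) is below the 10 CPM of the genes tested and Ltbp2 reached it only through the vFB3-like cluster. Of the 8423 genes, 28 had a ratio above that of Inhba. Tgfb1 was 1.76-fold higher, while Tgfb2 was at 0.376 and Tgfbr3 at 0.443 of the level elsewhere. The ratios held within the cells with Xist (Inhba between 9.72 and 14.8, Inhbb 201) and those with Y-linked UMIs (Inhba 7.29, Inhbb 138). The cluster carries genes of a mural list beside all FB5 markers, and whether mixed droplets take part in its levels was not tested.

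In the vFB3-like cluster, Ltbp2 was 44.8-fold (37.7 to 53.1), Tgfb1 4.32-fold (3.11 to 5.85) and Ltbp1 2.09-fold (1.84 to 2.36) higher than elsewhere, where 5.5% of all genes tested passed. Ltbp2 stood at 8.33 CPM in all other cells and so reached the 10 CPM of the genes tested only through this cluster, and no count of members is drawn from it. Tgfbr3 was at 0.106 (0.0527 to 0.189) and Tgfb3 at 0.263 (0.106 to 0.544) of the level in other cells. Among cells with Xist the ratios were 34.8 for Ltbp2, 5.38 for Tgfb1 and 2.16 for Ltbp1, and among cells with Y-linked UMIs they were 63.2, 3.48 and 1.96. The cluster held 45 cells and was the smallest.

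In the other classes 0 or 1 of the 10 members passed, near the shares of all genes, so these counts set no class apart. In the FB4-like cluster 0 of 10 members were 2-fold higher, where 2.46% of all genes tested were. Tgfb3 had the highest ratio there (1.72), and Ltbp1 (0.371), Inhba (0.292) and Ltbp2 (0.0977) were lower than elsewhere. In the SMC-like cluster Inhba alone passed, at 3.68-fold (2.63 to 5.03), where 3.75% of genes did. Without the 1 cell that held 61.9% of its Inhba UMIs the ratio was 1.43 (0.815 to 2.34) and 0 members passed. The Inhba ratio was 1.22 (0.555 to 2.35) in cells with Xist and 11.2 (7.39 to 16.4) in cells with Y-linked UMIs. Tgfbr3 passed in cells with Xist, at 2.03. In cluster 8, 0 members passed, where 6.32% of genes did. With cells limited to 8000 to 14000 UMIs Tgfb2, Tgfb3 and Inhba passed there, and other settings moved the count too. In the main setting Tgfb2 was at 1.82, Inhba at 1.70, Tgfb3 and Tgfb1 at 1.65 each, and Tgfbr2 at 0.390. The intervals of Tgfb1 (0.957 to 2.66) and Inhba (0.947 to 2.82) held 1. In cells with Xist the intervals of Tgfb2 (1.31, 0.951 to 1.75) and Tgfb3 (1.18, 0.609 to 2.08) held 1 as well, as did that of Tgfb3 in cells with Y-linked UMIs (1.49, 0.789 to 2.56), and 1 cell held 25 of the 150 Tgfb2 UMIs.

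**Figure D3:**
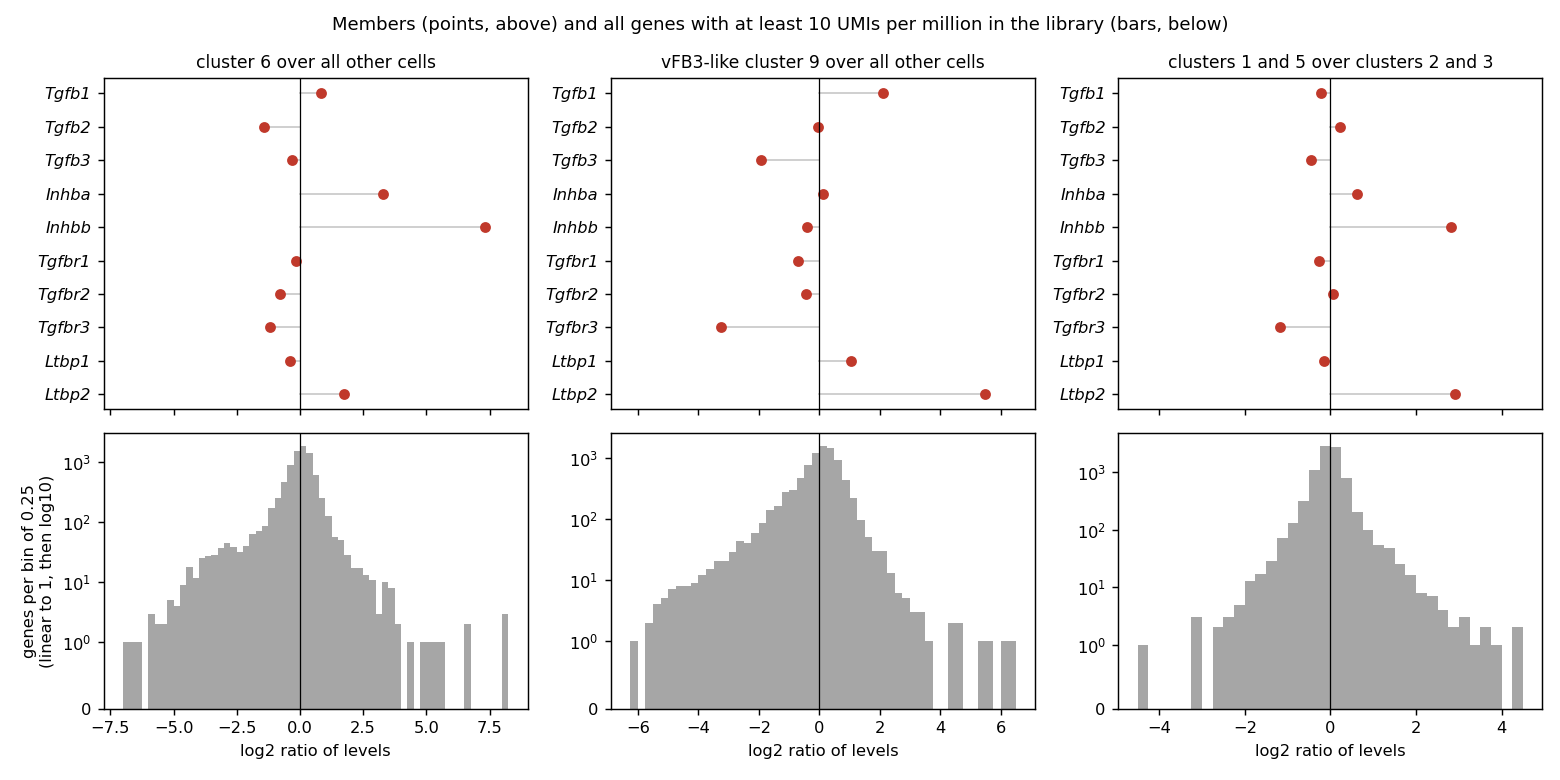
Distribution of log2 ratios of 8423 genes (histogram) and of the members (points above) in the comparisons named on the panels. Inhba and Inhbb lie at the far right for cluster 6 and Ltbp2 at the far right for the vFB3-like cluster, and Inhbb, at 0 UMIs in that cluster, is drawn there at the level of 3 UMIs.

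The villus fibroblast clusters were then split by Amotl2, a YAP/TAZ target gene that is no member and that did not form the clusters. Clusters 1 and 5 (1407 cells) were above their pooled level and clusters 2 and 3 (1615 cells) below it, with 235 against 62.1 CPM of Amotl2. Both sides come from the 1 labelled library, and whether they differ in recombination of Lats1 and Lats2 was not tested. Fos, an immediate early gene that responds to handling, was at 913 CPM on the high side and 1320 on the low side, and its part in the differences was not tested.

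The members parted in both directions. Ltbp2 was at 14.1 CPM on the high side and 1.88 on the low side, a ratio of 7.54 (5.17 to 11.3). Inhba was at 12.9 against 8.41 CPM (1.53, 1.23 to 1.91), and Inhbb at 1.27 against 0.181 CPM (6.99, 2.09 to 36.6, from 21 and 3 UMIs). Of all genes tested 4.55% were at least 1.5-fold higher, and for the same reasons of filtering no count of members is set against it. The Inhbb level on the low side lay under the free RNA bound of 0.587 CPM. Tgfbr3 was at 110 against 252 CPM (0.439, 0.415 to 0.463) and was the 1 member at least 1.5-fold lower, where 5.31% of genes were. When the Amotl2 split of the same clusters was set from cells with Xist alone, cluster 5 fell on the low side. Tgfbr3 was then at -0.57, Ltbp2 at 0.21 and Inhba at -0.38 on the log2 scale, none past 1.5-fold.

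The remaining members differed by less than 1.5-fold. Tgfb2 was at 1.17 and Tgfbr2 at 1.04, with intervals above 1. In cells with Y-linked UMIs both intervals held 1 (Tgfb2 1.08, 0.989 to 1.19, and Tgfbr2 0.969, 0.917 to 1.02), as did that of Tgfbr2 in cells with Xist (1.04, 0.997 to 1.09). Tgfb3 (0.726), Tgfbr1 (0.830) and Ltbp1 (0.901) were lower, with intervals below 1, though in cells with Y-linked UMIs those of Tgfbr1 (0.885, 0.744 to 1.05) and Ltbp1 (0.9504, 0.887 to 1.02) held 1. The interval of Tgfb1 (0.862, 0.722 to 1.03) held 1. The median of the members that passed 10 CPM was -0.15 on the log2 scale, beside -0.02 for all genes tested.

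**Figure D4:**
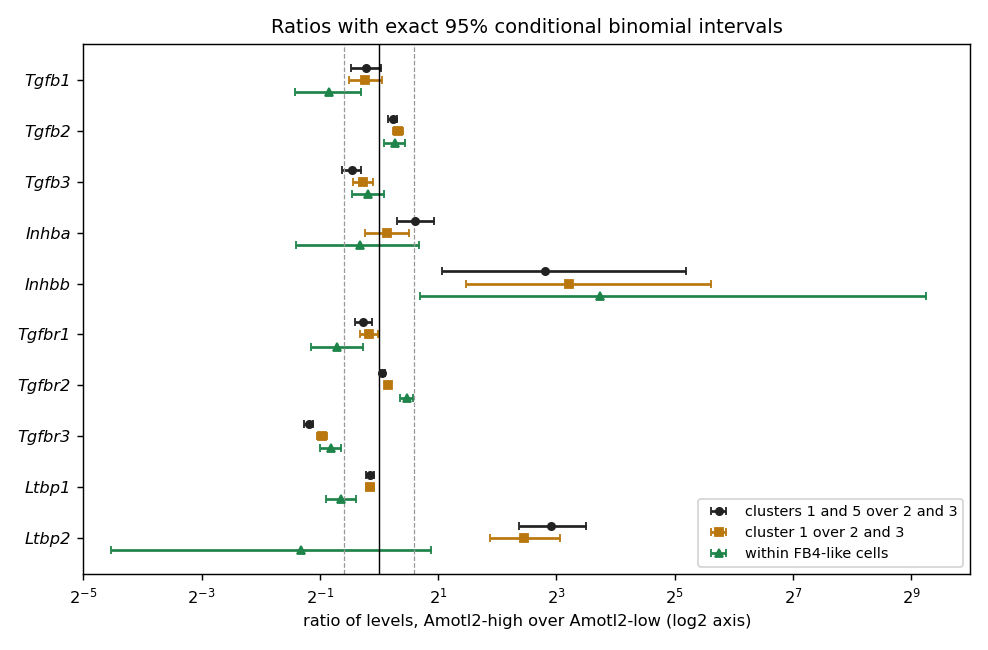
Ratio of each member's level, Amotl2-high over Amotl2-low, with exact 95% intervals that cover counting error only (log axis, dashed lines at 1.5-fold). Black circles are clusters 1 and 5 over 2 and 3, orange squares cluster 1 over 2 and 3, and green triangles the split within FB4-like cells. Tgfbr3 lies below 1 in all 3, while Ltbp2 lies above 5 in the villus splits and at 0.402 in the FB4-like one with an interval across 1.

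The Inhba difference rested on cluster 5. Without that cluster the ratio was 1.10 (0.853 to 1.42), while Ltbp2 stayed at 5.45 (3.66 to 8.36), Inhbb at 9.32 and Tgfbr3 at 0.514 (0.485 to 0.545). This setting was chosen after the data were seen. With cluster 5 kept on the high side, cells with Xist gave 8.31 for Ltbp2, 1.54 for Inhba and 0.476 for Tgfbr3. Cells with Y-linked UMIs then gave 9.42, 1.84 and 0.370. The Inhbb ratio in cells with Y-linked UMIs was 2.12 (0.413 to 13.7), from 8 UMIs.

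A like split was available inside the FB4-like cells when clusters were cut more finely, at resolution 1.0, with 201 cells above and 487 below in Amotl2 (349 against 75.5 CPM). Tgfbr3 was lower on the high side there too (128 against 224 CPM, 0.569, 0.503 to 0.641). Tgfb1 (0.557, 0.373 to 0.811), Tgfbr1 (0.614, 0.451 to 0.824) and Ltbp1 (0.641, 0.539 to 0.759) were lower as well, whereas Tgfbr2 was at 1.38 (1.29 to 1.49) and Tgfb2 at 1.202 (1.06 to 1.36). The Ltbp2 ratio of 0.402 rested on 2 and 11 UMIs, and its interval held 1. Inhbb, a gene below 10 CPM in the library, was at 13.3 (1.61 to 610), from 6 and 1 UMIs. Of all genes tested 6.31% were at least 1.5-fold lower and 6.36% higher, and for the same reasons of filtering no count of members is set against them. Inhba was at 0.804 (0.378 to 1.60). In cells with Xist and in cells with Y-linked UMIs the Tgfb1 intervals held 1 (0.629, 0.355 to 1.08, and 0.631, 0.327 to 1.14), and Tgfb2 was at 1.28 in the former and 0.826 (0.643 to 1.05) in the latter. Tgfbr3 (0.642 and 0.449), Ltbp1 (0.658 and 0.570) and Tgfbr2 (1.45 and 1.38) had intervals off 1 in both, and Tgfbr1 only in cells with Xist (0.547, and 0.847 with Y-linked UMIs). The lower Tgfbr3 was thus seen in both splits. Ltbp2 was not higher on the FB4-like high side, at levels near its free RNA bound, and the Inhba interval included both 1 and the villus ratio. This split was also chosen after the data were seen.

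The other genes of the pathway were read from a list of 55, of which 51 were in the file and 38 passed 10 CPM. Between the Amotl2-high and Amotl2-low villus clusters 5 were at least 1.5-fold higher and 5 lower, and the median of the 38 was -0.03 on the log2 scale. Among the 9 response genes, the connective tissue growth factor Ctgf (2.53, 2.30 to 2.79), the smooth muscle genes Tagln (2.37) and Acta2 (1.60), and fibronectin Fn1 (1.98) were higher. Ctgf is a YAP/TAZ target gene as well as a TGF-beta response gene. Without cluster 5, Acta2 was at 1.11 (1.06 to 1.16), below 1.5-fold, while Postn and the inhibitor Fstl3, at 1.34 and 1.44 with it, were at 1.54 each. The matrix gene Tgfbi (0.606, 0.574 to 0.639) was lower, and the collagens Col1a1 (1.21) and Col3a1 (1.02) differed little. The response genes therefore did not share 1 direction.

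Among the 10 genes of the latent complex and its activation, thrombospondin Thbs1, which can release the latent ligand, was higher (2.40, 2.25 to 2.56) and the integrin subunit Itgb3 lower (0.575). Of the 10 inhibitors 0 were 1.5-fold higher with cluster 5 included, and 6 had intervals below 1, 1 above it and 3 that held it. Pmepa1, a SMAD-induced brake on the receptor pathway, was lower at 316 against 652 CPM (0.484, 0.468 to 0.5005). Of the 5 transducers 3 had intervals below 1 and 1 above it, and Smad3 alone was at least 1.5-fold lower (13.6 against 24.5 CPM, 0.555, 0.469 to 0.655). All 3 receptors and co-receptors of the list that passed, Acvr1, Acvr2a and Eng, had intervals that held 1. In the FB4-like split Ctgf (4.28), Tagln (5.37), Acta2 (4.84) and Lrrc32 (1.67) were higher, Lrrc32 being the membrane anchor of latent TGF-beta. Tgfbi (0.633, 0.564 to 0.709) was among the 3 genes at least 1.5-fold lower there, as was Itgb3 at 0.6503 with an interval that held 1 (0.374 to 1.08).

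**Figure D5:**
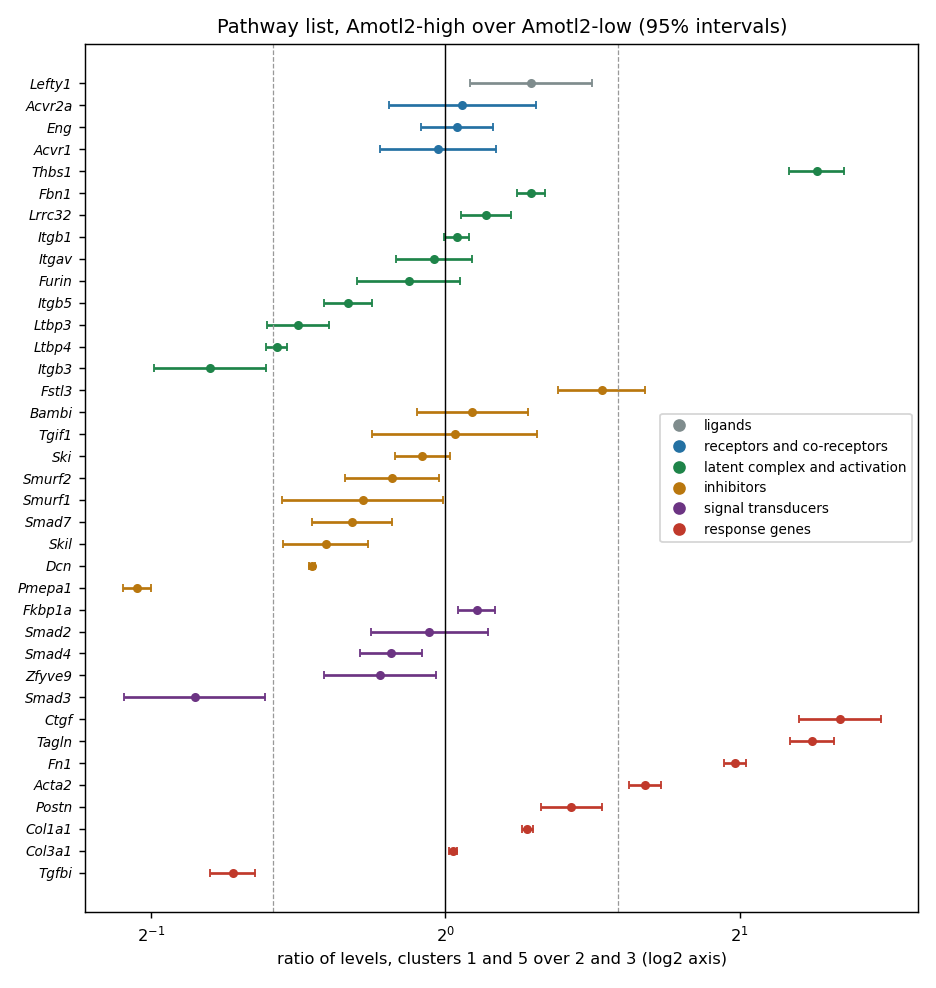
Ratio of pathway genes with at least 10 CPM between the Amotl2-high and Amotl2-low villus fibroblast clusters (log axis), grouped by role, with exact 95% intervals that cover counting error only (1 of the 38 genes is not drawn). Ctgf, Thbs1 and Tagln lie at 2.4 to 2.5 and Pmepa1 at 0.484, on opposite sides of 1.

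Against all other cells, the pathway genes of cluster 6 were led by Tagln (9.85-fold) and Acta2 (5.89-fold), the 2 of 38 that passed. Eng (1.83), Itgav (1.77) and Itgb1 (1.46) came next. Postn (0.110), Itgb3 (0.203), Bambi (0.222), Col3a1 (0.284) and Ltbp4 (0.320) were lowest. In the vFB3-like cluster 6 passed, namely Thbs1 (4.62), Itgb3 (3.71), the inhibitory Smad7 (3.45), the co-receptor Eng (2.29), Fn1 (2.18) and Itgav (2.10). The sister latent binding proteins Ltbp4 (0.193) and Ltbp3 (0.291) were lower there, opposite to Ltbp1 and Ltbp2, as were Fstl3 (0.413) and Dcn (0.424), and Postn had 0 UMIs. Itgav and Itgb3 encode the alpha and beta chains of an integrin that can bind the latent ligand.

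In the SMC-like cluster Acta2 (19.0), Tagln (18.0), Postn (3.59), Itgb3 (3.42) and Tgfbi (2.43) passed, and Col1a1 (0.289), Thbs1 (0.335), Dcn (0.387), Fbn1 (0.404) and Fn1 (0.426) were lowest. In cluster 8 Tagln (10.4), Acta2 (9.001), Ctgf (6.79) and Smurf1 (2.05) passed and Eng was at 1.91, while Tgfbi (0.207), Itgb3 (0.264), Col1a1 (0.310), Pmepa1 (0.332) and Thbs1 (0.351) were lowest. In the FB4-like cluster 4 passed, among them Postn (4.58), the proteoglycan Dcn (2.48) and the activin receptor Acvr2a (2.04), with Fbn1 at 1.78. Acta2 (0.0588), Tagln (0.0622), Itgb3 (0.342), Lrrc32 (0.367) and Thbs1 (0.527) were lowest there. Itgb3 thus differed in direction between the SMC-like cluster and cluster 8, which both carried smooth muscle genes.

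The likeness of member patterns was measured as the Pearson correlation of log2(CPM + 10) over the 9 clusters, which share 1 library and differ in depth and cell number, and is given without a test. Inhba was most like Rexo2 (0.986), Pkm and Wdr6, Ltbp1 like Scube1 (0.985), Tbc1d16 and Cnot2, and Tgfbr3 like Ubtf (0.981), Sorl1 and Mettl7a1. Ltbp2 was most like Brix1 (0.980), Ppil1 and Erap1, Tgfbr2 like 2900097C17Rik (0.970), Cd302 and Kdelr3, and Tgfb1 like Cul5 (0.969), Ubqln1 and Dr1. Tgfb2 was most like Acyp2 (0.956), Ephx1 and Txndc11, Tgfb3 like Sh3bp5l (0.955), Rnf145 and Kcnq1ot1, and Tgfbr1 like Vwc2 (0.933), Pou6f1 and Sft2d2. Between members, Tgfb1 and Ltbp2 were at 0.835 and Tgfbr1 and Tgfbr3 at 0.787. Tgfbr3 and Ltbp2 were at -0.892. The vFB3-like cluster, highest for Tgfb1 and Ltbp2 and lowest for Tgfbr1 and Tgfbr3, is 1 of the 9 points in each pair.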

How the data were processed

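Messenger RNA of sorted stromal cells of 1 library was read with a droplet 3-prime kit. Per the submitters' processing notes, reads were aligned to mm10 with Cell Ranger 3.0.2 and processed with Seurat 3.0.1. The authors kept cells with 1000 to 6000 genes and at most 7% mitochondrial UMIs, and removed immune and endothelial cells. The deposited values were natural log values, ln(1 + UMIs of the gene / UMIs of the cell × 10000). Whole UMIs were recovered for 100.0% of the 13789523 nonzero values (tolerance 0.001), and all levels were computed from them, in place of the raw counts the design had assumed. No cell was removed.

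Cells were clustered with Seurat 5.3.0 in R 4.3.3 (2000 variable genes, 1964 after removal of the members, pathway genes, YAP/TAZ targets, Vegfc, Vegfa and sex-linked genes, UMI count and mitochondrial share regressed out, 30 components, Louvain resolution 0.5). A marker counted if detected in at least 10% of a cluster's cells at 2 or more times the level of all other cells. A class went to the cluster with most such markers, named if at least 3 counted and its 10 leading genes held no more markers of another class than of its own. This naming rule was chosen with the cluster levels in view. The members, lists and tests were chosen with earlier results of these data known.

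Ratios were counted past 2-fold between classes and past 1.5-fold between the Amotl2 sides, for genes with at least 10 CPM in the library and, among the members, also for Inhbb (6.80 CPM). A count below 3 UMIs was read against a floor of 3 UMIs. The genes named are the members, up to 5 leading genes per cluster, the 3 genes most like each member, and the 5 highest and 5 lowest pathway ratios per comparison. 2 genes that this rule includes are not reported here, though counts of genes include them. Ctgf, Col1a1, Col3a1 and other genes outside the rule were named after their values were seen. Gene coordinates are from GENCODE M21 (mm10) and promoters from RefSeq. Scrublet (scanpy 1.11.5) marked 8 doublets (0.195%), too low a share to rely on, and an alternative dropped the 164 top-scoring cells (4%). The calculations were tested on simulated data.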

Additional observations from a re-analysis of the deposited data

How the results depend on the processing

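No paired analysis was possible because 1 library was analysed and its cells carry no replicate number. Of the counts of members past a fold (Inhbb included) recomputed under other settings, 104 stayed within 1.5 times the reported count and 7 did not. The count for cluster 8 (0) became 1 with members and pathway genes among the variable genes, 4 at mitochondrial UMIs of at most 5%, 3 in cells with 8000 to 14000 UMIs and 1 with the mean over cells. The first of these settings added Tgfb2 and the last Tgfb1. At the 5% limit 24 cells of cluster 8 and 17 of the vFB3-like cluster formed 1 cluster, Ltbp1 and Ltbp2 there reversed to 0.56 and 5.21 (log2), and no SMC-like or vFB3-like cluster remained to give a value. With the Amotl2 split of the same clusters set from cells with Xist alone, cluster 5 fell on the Amotl2-low side. The counts of higher and lower members became 1 and 0, and Inhba reversed to -0.38 (log2). Without the cell with the most UMIs of each member the SMC-like count became 0. Of the recomputed single values 436 stayed within their interval, 118 moved and 3 reversed. The settings that left out cluster 5 or the top cell, and the FB4-like split, were chosen after the data were seen. Levels under about 1 CPM rest on a few UMIs, and without replicates no spread between animals is known.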

Other observations

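Lefty1, an inhibitory ligand of the family and the 1 ligand of the pathway list with at least 10 CPM, stood between 14.4 and 29.3 CPM in the 9 clusters (22.8 CPM in the library). Its ratio was 1.22 (1.06 to 1.41) in the villus Amotl2 split and 1.498 (1.12 to 2.00) in the FB4-like split, chosen after the data were seen. The inhibin alpha gene Inha was at 1.91 CPM, and the activin receptors Acvr1b at 7.47 and Acvr2b at 5.60 CPM, all under the level set for the comparisons. Acvr1c, which with Acvr1b is a type I receptor for activin B, and Inhbe were at 0 UMIs in the library.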
